A study of Mus musculus with 18 samples.

Results

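The MHC class I antigen presentation genes were described across 6 types of mouse pluripotent stem cells by RNA-seq. The set was a list of 10 named genes, found in the count tables by matching Ensembl identifiers to gene symbols, out of 35773 genes in the files. It held the heavy chains H2-K1 and H2-D1, the light chain B2m, the peptide transporter subunits Tap1 and Tap2, the loading factor Tapbp, the immunoproteasome subunits Psmb8 and Psmb9, and the regulators Nlrc5 and Irf1. Each of the 10 was present in the files, and 9 passed the minimum of 10 counts in 3 or more samples and entered the tests. Nlrc5 did not reach that minimum and is described by its counts.

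MHC class I molecules display short peptides from inside the cell to T cells and natural killer cells. Proteasomes cut proteins into peptides, the TAP transporter moves these into the endoplasmic reticulum, and tapasin holds empty heavy chain and β2-microglobulin dimers next to TAP until a peptide binds. Interferons raise much of this pathway through transcription factors such as IRF1 and the coactivator NLRC5, and early embryonic and embryonic stem cells are known for low surface class I.

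There were 18 samples, 3 replicates in each of 6 groups, all labelled wild type and strain 129S2/SvPasCrl. Naive embryonic stem cells (ESCs) were grown with 2i (a pair of kinase inhibitors) and LIF. AFSCs were primed cells derived from blastocysts in N2B27 medium with activin A and bFGF. Advanced pluripotent stem cells (ASCs) were made from AFSCs by culture in ABCL medium, which is N2B27 with activin A, BMP4, the GSK3 inhibitor CHIR99021 and LIF. ESC-ASCs were ESCs converted in the same ABCL medium. Epiblast-like cells (EpiLCs) and epiblast stem cells (EpiSCs) completed the groups. The study's methods describe lines from crosses of mixed background, and the labels do not say which line each sample came from, so line and culture condition cannot be told apart. More than one ESC line was converted to ESC-ASCs in the study. MHC alleles differ between mouse strains, and whether they differed between these lines, and with it the mapping of H2-K1 and H2-D1 reads, was not tested. The study calls the replicates biological, but the labels do not say whether they were separate cultures, and the p-values then measure only the spread between these samples.

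Total counts were 4961934 to 9906473 per sample outside the ESC-ASC group and 17813619 to 18071600 in ESC-ASCs. The labels were checked with marker genes. Naive pluripotency markers (6 genes) summed to 1550 to 2360 CPM (counts scaled to a fixed library total) in ESC, ASC and ESC-ASC samples and to 4.59 to 37.2 CPM in EpiLC, AFSC and EpiSC samples. Formative and primed markers (7 genes) summed to 421 to 1100 CPM in the latter 3 groups and to 33.7 to 104 CPM in the former. Replicate 1 of the ESC, ASC, EpiLC and AFSC groups stood apart from replicates 2 and 3 of its group, with a chi-square per degree of freedom of 21.5 to 100 over genes against 1.65 to 11.9 between replicates 2 and 3. Counts below are therefore also given without these 4 libraries where that changed a call. The tissue is bulk culture, in which fewer cells that express a gene and less RNA per cell cannot be told apart.

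Levels are counts divided by a DESeq2 size factor and by exonic length in kb, called normalised counts per kb. Fold changes are log2 values from the quasi-likelihood fit of edgeR, each with its standard error (SE) and n of 3 per group, and every p was adjusted by Benjamini-Hochberg over the 16901 genes tested. Each of the 9 tested genes differed among the 6 groups at an adjusted p below 0.05, as did 94.4% of all tested genes. The extremes were less common in the background. All ESC samples lay below the other 15 samples for 6 of the 9 tested genes (H2-K1, H2-D1, Tap1, Tap2, Tapbp and Psmb9), against 7.88% of all tested genes. All AFSC samples lay above the other 15 for 5 of the 9 (H2-D1, Tap1, Tap2, Psmb8 and Psmb9), against 5.38%. H2-K1 was the one tested gene of the set that was highest in every ASC sample (background 5.49%), and Irf1 the one highest in every EpiLC sample (background 4.65%).

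**Figure D1:**
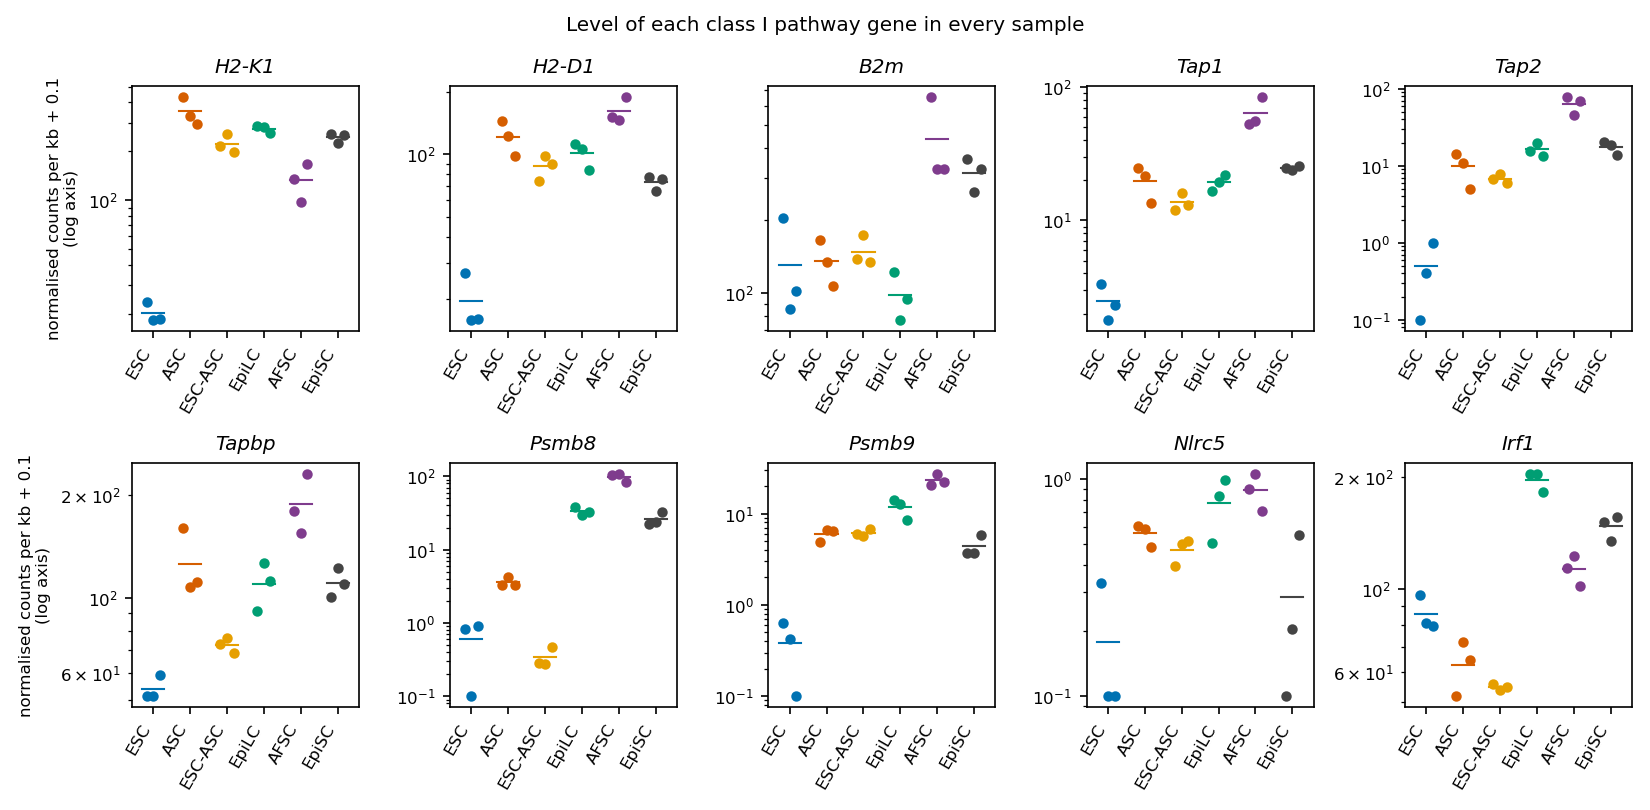
Level of each of the 10 genes in every sample, as normalised counts per kb plus 0.1 on a log axis, by group; points are samples and bars are the group means of 3 samples. ESC samples are lowest for H2-K1 (18.3 to 23.4), whereas Psmb8 is also near its floor in ESC-ASCs, at 0.179 to 0.368.

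H2-K1 encodes the K heavy chain, which with B2m forms a classical class I molecule (GRCm38 chr17:33996017-34000333, minus strand). In ESCs its level was 23.4, 18.3 and 18.4 normalised counts per kb in replicates 1 to 3, from 31 to 43 counts. In ASCs it was 431, 331 and 296, in ESC-ASCs 215, 254 and 198, and in EpiLCs 284, 283 and 259. In AFSCs it was 135, 97.7 and 166, and in EpiSCs 255, 226 and 251. The ESC samples were far below all others, and the AFSC samples came next and did not overlap with any other group. ASCs were higher than ESCs by 4.13 ± 0.21 (adjusted p = 3.34e-11) and higher than AFSCs by 1.38 ± 0.17 (adjusted p = 1.38e-06). ASCs and EpiLCs, EpiLCs and EpiSCs, and EpiSCs and ESC-ASCs were neighbours in this order that the test did not separate (adjusted p = 0.0996, 0.361 and 0.484). Among tested genes the level of H2-K1 stood at the 38.1 percentile in ESCs and the 91.1 percentile in ASCs.

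H2-D1, the D heavy chain (chr17:35262730-35267499, plus strand), had a different order. Its level was 26.7, 15.8 and 16.0 in ESCs, 144, 122 and 97.4 in ASCs and 74.3, 97.9 and 89.7 in ESC-ASCs. It was 112, 106 and 83.8 in EpiLCs, 152, 145 and 188 in AFSCs and 77.3, 66.6 and 75.5 in EpiSCs. AFSC samples were highest for H2-D1, the group in which H2-K1 was second lowest. The ratio of H2-K1 to H2-D1 per kb was 0.814 ± 0.124 (SD) in AFSCs and 1.06 ± 0.16 in ESCs. It was 2.91 ± 0.18 in ASCs, 2.56 ± 0.34 in ESC-ASCs, 2.77 ± 0.29 in EpiLCs and 3.33 ± 0.052 in EpiSCs. The lower level of H2-D1 in ASCs than in AFSCs (log2 -0.44 ± 0.18, adjusted p = 0.0369) was not called without ASC replicate 2 or 3, AFSC replicate 3, EpiLC replicate 1 or ESC-ASC replicate 2 (adjusted p = 0.0539 to 0.179). Multi-mapping fragments were counted once for every location by the authors, so H2-K1, H2-D1 and the similar H2-Q genes share an unknown part of their counts.

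The sequence upstream of the heavy chain starts was examined because both genes were low in ESCs and high elsewhere. RefSeq gave starts for 8 of the 10 genes (10 starts, build GRCm38.p6), and the 250 bases before each were searched on both strands for 5 motifs. The stretch from the κB match to the interferon regulatory factor (IRF) match is shown for both heavy chains, with motif matches in capitals (H2-K1 chr17:34000430-34000457, minus strand, and H2-D1 chr17:35262924-35262951, plus strand):
H2-K1: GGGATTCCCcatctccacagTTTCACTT
H2-D1: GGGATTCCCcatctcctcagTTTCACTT
The 2 stretches were identical at 27 of 28 bases and differed by A17T, counted from 1 at the 5′ end with the H2-K1 base first. The H2-D1 stretch is upstream of the RefSeq start only. In the annotation used for counting its 28 bases lie within an H2-D1 exon, whereas the H2-K1 stretch lies outside exons. The whole 250-base windows of H2-D1, Tapbp, Psmb8, Psmb9 and Tap1 also lie within exons of that annotation. The κB motif GGGANTCCC, which reads alike on both strands, matched upstream of 3 of the 8 genes (H2-K1, H2-D1 and Irf1) and in 0.636% of 32851 RefSeq start windows of that length. The IRF consensus AANNGAAA matched upstream of H2-K1, H2-D1 and B2m and in 21.3% of windows. These shares are per start window and the counts are per gene. The heavy chain stretches are near copies, so their matches are not separate, and enrichment was not tested.

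The longer windows of H2-K1, B2m and Irf1 are shown because they lie outside the exons used for counting and because these 3 genes differed in their order of levels. The Irf1 window held the motif TTCNNNGAA, which also reads alike on both strands, matched upstream of Psmb8 too and occurred in 7.02% of all windows. Capitals mark these motifs and TGACG (5 of the 8 genes, 17.8% of windows) and CCAAT (7 of the 8 genes, 33.8%), on either strand. Psmb9 and Tap1 are counted for the same TGACG bases and the same CCAAT bases between their starts. Like those of the heavy chains, their matches are not separate. None of these motifs overlapped in the windows shown:
H2-K1 (chr17:34000348-34000597, minus strand): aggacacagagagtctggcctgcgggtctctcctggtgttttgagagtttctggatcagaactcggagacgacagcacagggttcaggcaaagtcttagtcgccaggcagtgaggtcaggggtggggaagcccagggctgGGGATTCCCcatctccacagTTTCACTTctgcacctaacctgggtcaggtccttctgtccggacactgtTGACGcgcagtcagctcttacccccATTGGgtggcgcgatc
B2m (chr2:122147437-122147685, plus strand): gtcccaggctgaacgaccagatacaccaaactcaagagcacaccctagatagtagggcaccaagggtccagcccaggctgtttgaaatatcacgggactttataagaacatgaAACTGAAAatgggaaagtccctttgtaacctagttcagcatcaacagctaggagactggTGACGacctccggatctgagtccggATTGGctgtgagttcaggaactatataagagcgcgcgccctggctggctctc
Irf1 (chr11:53769764-53770013, plus strand): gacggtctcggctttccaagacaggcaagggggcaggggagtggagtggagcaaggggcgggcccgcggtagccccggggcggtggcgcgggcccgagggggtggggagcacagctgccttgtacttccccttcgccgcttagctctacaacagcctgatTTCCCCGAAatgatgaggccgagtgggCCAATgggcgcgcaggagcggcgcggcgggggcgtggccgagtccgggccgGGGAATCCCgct
These matches describe letters in a window and are not measured binding sites.

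B2m encodes β2-microglobulin, the light chain shared by all class I molecules (chr2:122147686-122153083, plus strand). Its level was 204, 85.3 and 101 in ESCs, 166, 134 and 107 in ASCs, 138, 173 and 134 in ESC-ASCs and 122, 77.2 and 94.6 in EpiLCs. It was 651, 327 and 328 in AFSCs and 360, 261 and 326 in EpiSCs. AFSC and EpiSC samples were above every other sample, and ASC, ESC-ASC and EpiLC samples each overlapped with ESC samples. Unlike the heavy chains, B2m was not called between ESCs and ASCs (0.09 ± 0.31, adjusted p = 0.828), between ESCs and ESC-ASCs (0.23 ± 0.30, adjusted p = 0.529) or between ESCs and EpiLCs (-0.36 ± 0.32, adjusted p = 0.354). Without the 4 libraries that stood apart, B2m was called higher in ESC-ASCs than in ESCs (0.66, adjusted p = 0.00223). AFSCs were above ESCs by 1.79 ± 0.30 (adjusted p = 4.31e-05) and EpiSCs by 1.32 ± 0.30 (adjusted p = 0.000906). Per kb, H2-K1 amounted to 17.04% ± 5.08 (SD) of B2m in ESCs, 33.8% ± 15.3 in AFSCs and 78.0% ± 8.0 in EpiSCs, and exceeded it in ASCs (261% ± 15), ESC-ASCs (150.2% ± 5.3) and EpiLCs (291% ± 69).

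Tap1 and Tap2 form the transporter that carries peptides into the endoplasmic reticulum, and both were lowest in ESCs and highest in AFSCs. Tap1 (chr17:34187553-34197225, plus strand) was at 3.24, 1.70 and 2.24 in ESCs, 24.4, 21.4 and 13.4 in ASCs and 11.8, 16.1 and 13.0 in ESC-ASCs. It was 16.5, 19.4 and 21.7 in EpiLCs, 52.4, 55.6 and 83.8 in AFSCs and 24.7, 23.7 and 25.5 in EpiSCs. The 3 AFSC samples were thus above every other sample. EpiSCs and ASCs, ASCs and EpiLCs, and EpiLCs and ESC-ASCs were neighbours that the test did not separate (adjusted p = 0.205, 0.961 and 0.0512). AFSCs were above ESCs by 4.80 ± 0.29 (adjusted p = 5.16e-11) and ASCs were below AFSCs by 1.72 (log2 -1.72 ± 0.22, adjusted p = 1.75e-06).

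Tap2 (chr17:34203527-34216321, plus strand) had 0, 1 and 3 counts in the ESC samples. Its level was 14.3, 10.7 and 4.93 in ASCs, 6.55, 7.75 and 5.85 in ESC-ASCs. It was 15.6, 19.9 and 13.3 in EpiLCs, 78.0, 45.3 and 68.5 in AFSCs and 20.1, 18.4 and 13.9 in EpiSCs. AFSC samples again stood above all others without overlap. The summed counts gave an AFSC to ESC ratio of 136 after scaling for depth, with an exact 95% interval of 52.8 to 500 that covers counting error only. The ASC to ESC ratio was 21.4 (8.12 to 80.0). ASCs were below AFSCs by log2 -2.70 ± 0.30 (adjusted p = 3.09e-07). An antisense gene, Gm15821, overlaps 14.1% of the exonic length of Tap2, and counting without strand adds its fragments to Tap2.

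Tapbp encodes tapasin, which bridges TAP and the empty class I dimer (chr17:33915899-33929288, plus strand), and it varied less than the transporter. Its level was 51.4, 51.2 and 59.2 in ESCs, 159, 107 and 111 in ASCs, 73.0, 76.2 and 68.5 in ESC-ASCs. It was 91.5, 126 and 111 in EpiLCs, 179, 155 and 231 in AFSCs and 99.9, 122 and 109 in EpiSCs. ESC-ASC samples lay between the ESC samples and all the rest, without overlap. ASCs were above ESCs by 1.20 ± 0.18 (adjusted p = 3.11e-05), and ESC-ASCs were below ASCs by log2 -0.79 ± 0.17 (adjusted p = 0.00105). The difference of ESC-ASCs from ESCs was 0.41 ± 0.18 and was not called (adjusted p = 0.0588), although it was called by DESeq2 (adjusted p = 0.0482) and without the 4 libraries that stood apart (adjusted p = 0.0292). It was also called without ASC replicate 1, AFSC replicate 2, AFSC replicate 3 or EpiLC replicate 1 alone (adjusted p = 0.0311 to 0.0494). The antisense gene Gm19412 overlaps 20.2% of the exonic length of Tapbp.

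Psmb8 and Psmb9 are catalytic subunits that replace Psmb5 and Psmb6 of the standard proteasome to make the immunoproteasome. Psmb8 (chr17:34197721-34201454, plus strand) had 1, 0 and 2 counts in ESCs and 1, 1 and 2 in ESC-ASCs, although ESC-ASC libraries were the deepest. ASCs had 8, 11 and 8 counts, a level of 3.16, 4.18 and 3.21. The level was 38.0, 29.8 and 32.5 in EpiLCs, 103, 109 and 84.1 in AFSCs and 22.5, 23.5 and 32.5 in EpiSCs. Psmb8 thus separated the 3 groups with naive markers from the other 3, with no overlap. ASCs were below AFSCs by log2 -4.82 ± 0.26 (adjusted p = 1.27e-11), the lowest log2 fold change of the set in that comparison. The ratio of ASCs to ESC-ASCs was 14.5 (counting interval 5.05 to 57.0), and that of AFSCs to ESCs was 202 (68.9 to 983).

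Psmb9 (chr17:34181988-34187764, minus strand) had 1, 1 and 0 counts in ESCs. Its level was 4.72, 6.53 and 6.29 in ASCs, 5.80, 5.61 and 6.60 in ESC-ASCs. In EpiLCs it was 13.9, 12.6 and 8.48, and it was 20.2, 27.2 and 22.1 in AFSCs and 3.59, 3.61 and 5.74 in EpiSCs. ASC and ESC-ASC samples overlapped for Psmb9 (difference 0.04 ± 0.27, adjusted p = 0.903), while those of Psmb8 did not. The summed counts gave ratios to ESCs of 24.2 (6.42 to 205) in ASCs, 24.8 (6.74 to 207) in ESC-ASCs and 96.4 (26.4 to 801) in AFSCs. Psmb9 and Tap1 start 225 bases apart on opposite strands by RefSeq, and their exons in the count annotation share 212 bp, so fragments there were counted for both.

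Relative to their constitutive counterparts Psmb8 and Psmb9 were minor in every group. Psmb8 was 6.25% ± 0.24 (SD, n = 3) of Psmb5 per kb in AFSCs, 2.03% ± 0.07 in EpiLCs, 1.59% ± 0.24 in EpiSCs and 0.429% ± 0.102 in ASCs. In ESCs it was 0.0385% ± 0.0348 and in ESC-ASCs 0.0366% ± 0.0155. Psmb9 was 1.37% ± 0.10 of Psmb6 in AFSCs, 0.863% ± 0.145 in ASCs, 0.706% ± 0.036 in ESC-ASCs, 0.677% ± 0.184 in EpiLCs and 0.273% ± 0.055 in EpiSCs. Psmb10, the third immunoproteasome subunit, was far more abundant: it was 62.9% ± 3.5 of Psmb7 in EpiLCs, 61.1% ± 10.1 in AFSCs and 35.1% ± 1.8 in EpiSCs, but 8.73% ± 1.2 in ESCs, 10.2% ± 1.1 in ASCs and 14.95% ± 0.64 in ESC-ASCs. For Psmb8 and Psmb10 the ratios in the 3 groups with naive markers did not overlap with those in the other 3, whereas Psmb9 did not divide the groups that way.

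**Figure D2:**
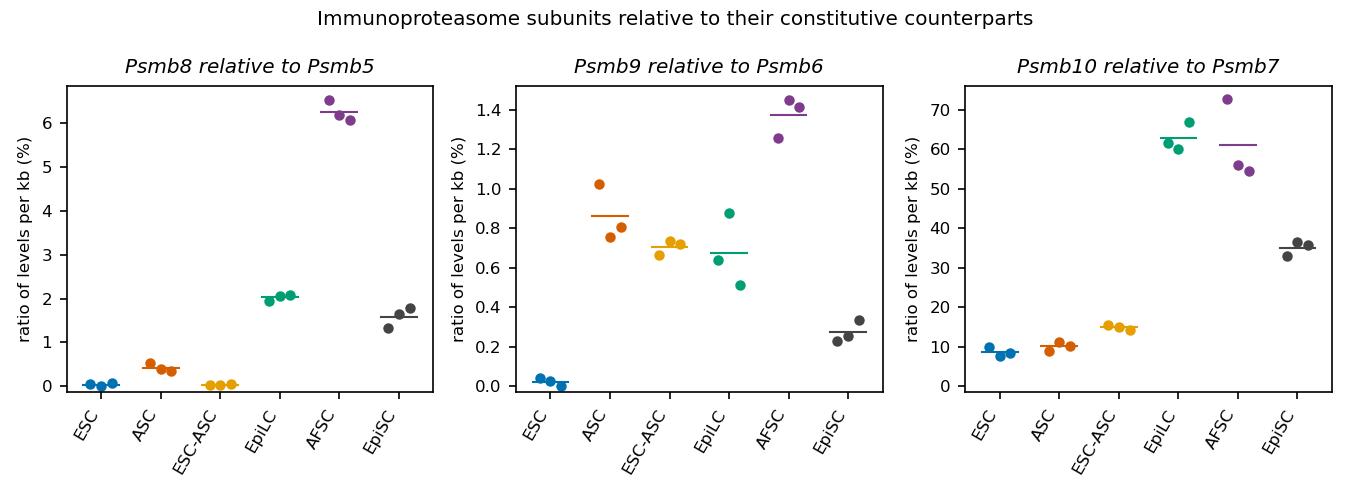
Ratio of each immunoproteasome subunit to its constitutive counterpart, in percent of levels per kb on linear axes of different range, by group; points are samples and bars are group means. AFSCs reach 6.25% for Psmb8 over Psmb5, and EpiLCs and AFSCs lie above 50% for Psmb10 over Psmb7.

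Nlrc5 is the coactivator that drives class I promoters (chr8:94434356-94527272, plus strand), and it was barely detected. Its counts were 1, 0 and 0 in ESCs, 4, 4 and 3 in ASCs, and 5, 7 and 7 in ESC-ASCs. EpiLCs had 3, 7 and 7 counts, AFSCs 5, 7 and 5 and EpiSCs 0, 1 and 4. The summed counts gave a ratio of AFSCs to ESCs of 15 with a counting interval of 2.34 to 625, and of EpiSCs to ESCs of 3.84 with an interval of 0.430 to 182. The interval for EpiSCs includes 1, so a difference was not detectable at this depth.

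Irf1 encodes an interferon-induced transcription factor that acts on class I and Tap1 promoters (chr11:53770014-53778374, plus strand). Its level was 96.6, 81.1 and 79.7 in ESCs, 51.6, 72.1 and 64.5 in ASCs, 55.6, 53.5 and 54.6 in ESC-ASCs. In EpiLCs it was 204, 204 and 181, and it was 114, 123 and 102 in AFSCs and 151, 135 and 156 in EpiSCs. Its order differed from that of the other tested genes, since ASCs and ESC-ASCs were below ESCs. ASCs were below ESCs by log2 -0.47 ± 0.13 (adjusted p = 0.00663) and ESC-ASCs by -0.66 ± 0.13 (adjusted p = 0.000224). The ASC difference was not called without the 4 libraries that stood apart (-0.23, adjusted p = 0.127). EpiLCs were above ESCs by 1.21 ± 0.13 (adjusted p = 1.83e-07).

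**Figure D3:**
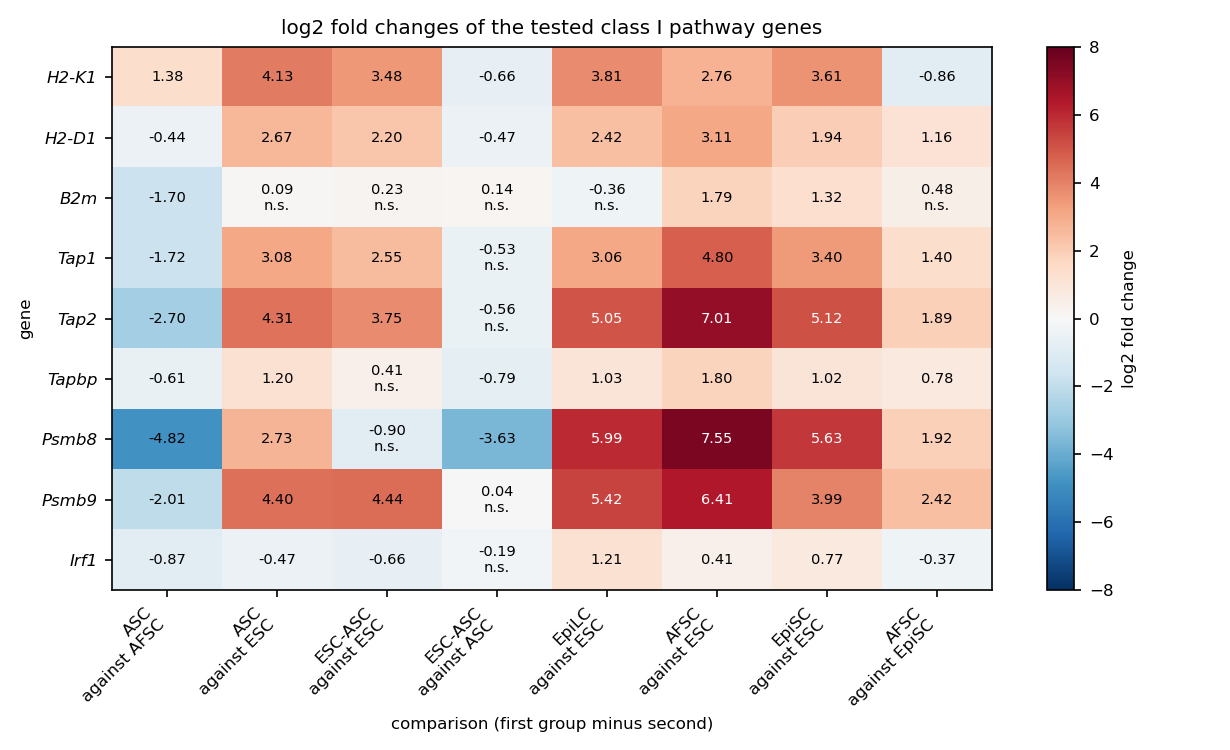
log2 fold changes of the 9 tested genes (rows) in 8 comparisons (columns), first group minus second, with n.s. where the adjusted p was not below 0.05; values resting on a few ESC or ESC-ASC counts (Tap2, Psmb8, Psmb9) depend on the prior count of the fit. The columns against ESCs are mostly positive and that of ASC against AFSC is negative for all but H2-K1.

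The comparison of each group with ESCs asked how the class I genes stood relative to the naive state. In ASCs 7 of the 9 tested genes rose, Irf1 fell and B2m was not called, against 26.4% of all tested genes higher and 23.9% lower. Their median log2 fold change was 2.73 beside 0.02 over all tested genes. In ESC-ASCs 5 rose (H2-K1, H2-D1, Tap1, Tap2 and Psmb9), Irf1 fell and B2m, Tapbp and Psmb8 were not called, against 30.6% higher and 29.6% lower, with a median of 2.20 beside 0.03. In EpiLCs 8 rose and B2m was not called, against 28.7% higher and 26.6% lower (median 3.06 beside 0.06). In AFSCs 9 of 9 rose, against 29.7% higher and 30.8% lower (median 3.11 beside -0.03), although Irf1 was not called there without ESC replicate 3 (adjusted p = 0.0525). In EpiSCs 9 of 9 also rose, against 29.2% higher and 32.0% lower (median 3.40 beside -0.04). These 5 comparisons share the ESC samples. Under the study's own thresholds (adjusted p below 0.05, log2 fold change beyond 2 and mean log2 level above 3), 4 genes passed in ASCs (background 6.51%), and 3 in ESC-ASCs (11.2%). In EpiLCs 6 passed (12.2%), in AFSCs 6 (16.4%) and in EpiSCs 4 (17.3%), or 5 in EpiSCs without the 4 libraries that stood apart.

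The comparison of ASCs with AFSCs, from which they were derived, showed the opposite direction. Of the 9 tested genes 8 fell and H2-K1 rose, against 31.2% of all tested genes lower and 32.8% higher, and the median log2 fold change was -1.70 beside 0.02 over all tested genes. Tap2, Psmb8 and Psmb9 passed the study's thresholds (background 14.1%), and 2 genes passed them without the 4 libraries that stood apart. AFSCs were also above EpiSCs, the other primed line, for 6 of 9 genes, below them for H2-K1 and Irf1 and not called for B2m, against 21.6% of all tested genes higher and 17.8% lower. Psmb9 was the one past the study's thresholds (5.80%), at 2.42 ± 0.27 (adjusted p = 6.90e-07). The lower Irf1 was not called without AFSC replicate 3, EpiSC replicate 1 or EpiSC replicate 3 (adjusted p = 0.0669 to 0.120).

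ESC-ASCs were compared with ASCs, which were grown in the same medium. Of the 9 tested genes 4 were lower in ESC-ASCs (H2-K1, H2-D1, Tapbp and Psmb8), none was higher (0 also at an unadjusted p below 0.05 and 0 by DESeq2) and 5 were not called, against 27.7% of all tested genes lower and 3892 of 16901 higher. None passed the study's thresholds (5.84%). H2-K1 was lower by log2 -0.66 ± 0.17 (adjusted p = 0.00318). The call for H2-D1 (-0.47 ± 0.18, adjusted p = 0.0353) was lost without ASC replicate 1 or 2 or ESC-ASC replicate 1 or 3 (adjusted p = 0.0672 to 0.166). Tap1 was at -0.53 ± 0.22 (adjusted p = 0.0555) and was called without ASC replicate 3, ESC-ASC replicate 2, AFSC replicate 1, AFSC replicate 3 or EpiLC replicate 1 (adjusted p = 0.0107 to 0.0485). Tap2 was called without ASC replicate 3 (-0.88, adjusted p = 0.0232), and Irf1 without ASC replicate 1 (-0.32, adjusted p = 0.0425) and without the 4 libraries that stood apart (-0.34, adjusted p = 0.0099).

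Both conversions ended in ABCL medium but began from different levels, and the difference between the 2 changes was tested. In 8 of the 9 tested genes the change from AFSCs to ASCs was lower than that from ESCs to ESC-ASCs, against 27.7% of all tested genes. For Tap1 the change was -1.72 from AFSCs and 2.55 from ESCs, a difference of -4.27 ± 0.38 (adjusted p = 1.17e-08). H2-D1 changed by -0.44 and 2.20 (difference -2.64 ± 0.28, adjusted p = 1.35e-07). H2-K1 rose in both, by 1.38 and 3.48 (difference -2.10 ± 0.27, adjusted p = 1.61e-06). Irf1 fell in both, by log2 -0.87 and -0.66, and the difference was not called (-0.21 ± 0.18, adjusted p = 0.337). In level, ASC and ESC-ASC samples overlapped for 6 of the 9 tested genes (H2-D1, B2m, Tap1, Tap2, Psmb9 and Irf1), against 36.4% of all tested genes. The samples of the starting AFSCs and ESCs overlapped for 0 of the 9, against 40.6%.

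**Figure D4:**
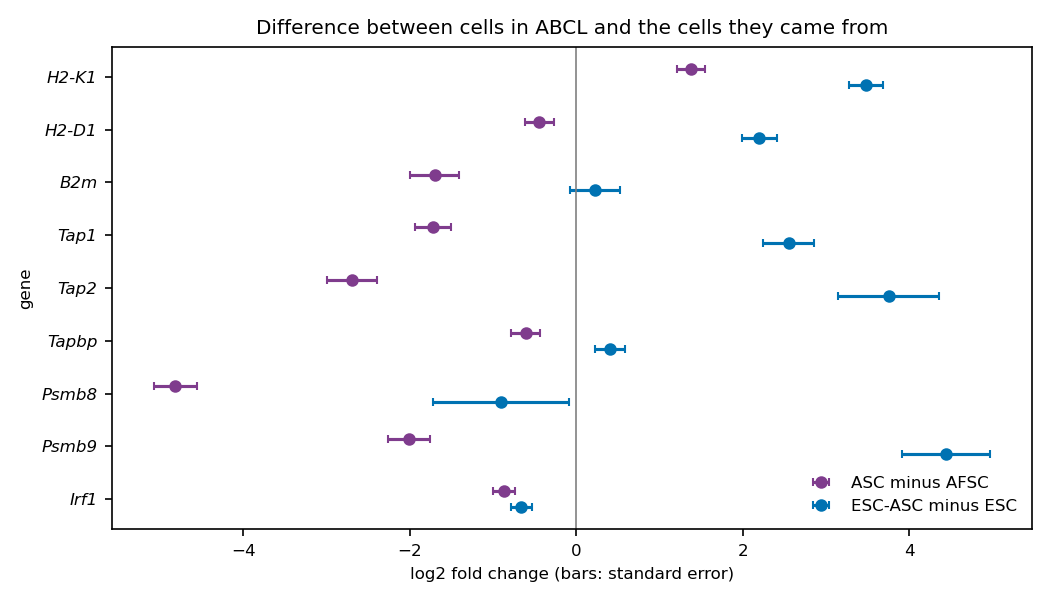
log2 fold change of each tested gene from AFSCs to ASCs and from ESCs to ESC-ASCs, with bars of 1 standard error; the axis is log2 fold change and the line marks 0. Tap1 lies at -1.72 and 2.55, H2-K1 is above 0 in both and Irf1 below 0 in both.

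The other genes of the pathway were counted in the same way. Of 15 other class I heavy chain genes tested, 6 were higher and 4 lower in ASCs than in ESCs, against 26.4% of all tested genes higher and 23.9% lower, with a median log2 fold change of 0.34 beside 0.02. H2-M5 was at 239 ± 43 (SD) in ESCs, 116 ± 5 in ASCs and 1.07 ± 0.83 in AFSCs, and Fcgrt, the neonatal Fc receptor, at 169 ± 29, 38.8 ± 3.4 and 0.948 ± 1.13, so that both were highest in ESCs. H2-Bl was highest in AFSCs, at 206 ± 19 beside 65.6 ± 12.2 in ESCs. Of 8 genes for peptide loading and trimming, 4 were higher and 2 lower in the same comparison, so that the lower count was near the 23.9% over all tested genes. Erap1, which trims peptides in the endoplasmic reticulum, was at 2.87 ± 0.09 in ESCs, 2.61 ± 0.52 in ESC-ASCs, 15.7 ± 7.0 in ASCs, 50.5 ± 18.5 in AFSCs and 62.3 ± 1.4 in EpiSCs. Tapbpl, a relative of tapasin, was at 6.39 ± 1.0 in ESCs and 42.6 ± 16.9 in AFSCs. Lnpep, a trimming enzyme of endosomes, was at 56.0 ± 31.8 in ASCs and 5.04 ± 2.04 in AFSCs.

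Of 9 proteasome subunit and activator genes, 8 were lower and 1 higher in ASCs than in AFSCs, against 31.2% of all tested genes lower and 32.8% higher. The 8 included the standard subunits Psmb5 (log2 -0.92 ± 0.18), Psmb6 (-1.29 ± 0.19) and Psmb7 (-0.80 ± 0.14) as well as Psmb10 (-3.35 ± 0.19). Compared with ESCs, 6 of the 9 were lower and 0 higher in ASCs, against 23.9% and 26.4% of all tested genes. Psme1 and Psme2 encode the activator that caps immunoproteasomes. Psme2 was at 184 ± 56 in ASCs, 215 ± 6 in ESC-ASCs, 305 ± 11 in ESCs, 820 ± 144 in AFSCs and 966 ± 99 in EpiSCs. Psme1 was at 192 ± 49 in ASCs, 414 ± 63 in ESCs and 507 ± 82 in AFSCs, and Psmb10 at 39.9 ± 11.2, 44.4 ± 7.5 and 402 ± 59.

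Of 11 regulators of class I promoters, 4 were higher and 5 lower in ASCs than in ESCs, against 26.4% of all tested genes higher and 23.9% lower. Rfx5, which binds class I and class II promoters, had group means between 22.7 ± 1.5 in EpiSCs and 36.8 ± 1.5 in ESCs. Nfkb1 was at 7.01 ± 1.12 in ESCs and 29.1 ± 6.2 in AFSCs, while Nfya and Nfyc, subunits of the CCAAT-binding factor, were at 89.6 ± 9.7 and 283 ± 36 in ESCs and at 42.4 ± 0.6 and 174 ± 20 in AFSCs. Of 13 genes for interferon receptors and signalling, 3 were higher, 4 lower and 6 not called in ASCs against AFSCs. Among all tested genes 32.8% were higher and 31.2% lower. Of these 13, Tyk2, a kinase of the interferon receptors, was at 85.8 ± 6.0 in ASCs and 31.0 ± 6.2 in AFSCs, and Irf3 at 51.6 ± 7.7 and 115 ± 7.

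Of 20 interferon-stimulated genes tested, 16 were higher and 1 lower in AFSCs than in EpiSCs, against 21.6% of all tested genes higher and 17.8% lower. In ASCs 12 were lower and 3 higher than in AFSCs (31.2% and 32.8% of all tested genes), and in ESC-ASCs 16 were lower and 1 higher than in ASCs (27.7% lower and 3892 of 16901 higher). Gbp2, an interferon-induced GTPase, was at 289 ± 84 in AFSCs, 30.3 ± 1.4 in EpiLCs, 14.8 ± 2.6 in ASCs and 12.5 ± 2.3 in EpiSCs, with 0 to 1 counts in ESC samples and 0 in ESC-ASC samples. Oas1a, an antiviral enzyme, and Trim25 lay the other way between ESCs and AFSCs, since Oas1a was at 301 ± 35 in ESCs and 10.6 ± 1.6 in AFSCs, and Trim25 at 194 ± 52 and 0.134 ± 0.233. Against ESCs, 6 of the 20 were higher and 6 lower in ASCs, near the 26.4% and 23.9% of all tested genes. In AFSCs 10 were higher and 5 lower than in ESCs (29.7% and 30.8% of all tested genes), and in ESC-ASCs 3 higher and 13 lower (30.6% and 29.6%).

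Markers of other cell types were checked beside these results. Fibroblast markers (10 genes) summed to 57.7 to 96.9 CPM in ASCs, 33.4 to 59.4 in AFSCs, 30.2 to 59.7 in ESCs, 31.2 to 37.9 in EpiLCs, 15.2 to 19.8 in ESC-ASCs and 11.7 to 14.6 in EpiSCs. The list was split, since of its 7 tested genes 4 were higher and 3 lower in ASCs than in ESCs (26.4% and 23.9% of all tested genes). ASCs, whose sums reached highest, had H2-K1 at 352 ± 70 and B2m at 136 ± 29. In EpiSCs, with the lowest sums, they were at 244 ± 15 and 316 ± 50. Blood and immune cell markers (8 genes) summed to 148 to 162 CPM in ASCs, of which Laptm5 was the most abundant. They summed to 65.1 to 110 in ESCs and 86.4 to 98.0 in ESC-ASCs. The sums were 13.7 to 16.1 in EpiLCs, 11.5 to 13.9 in AFSCs and 3.49 to 4.71 in EpiSCs. In each group 2 or 3 of these 8 genes had no count in any sample. Visceral endoderm markers (9 genes) summed to 38.1 to 39.8 CPM in EpiSCs and to at most 19.0 in the other groups, and trophoblast markers (9 genes) to 222 to 261 CPM in EpiSCs and to at most 147 elsewhere. Eomes is in both the trophoblast list and the primed list, and was higher in EpiSCs than in ESCs by 7.57 ± 0.24. Of the 7 tested trophoblast markers 2 were higher and 4 lower in that comparison, against 29.2% and 32.0% of all tested genes. Whether other cell types had a part in the class I levels was not tested.

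The genes whose log2 levels were most like those of 3 members over the 18 samples were found by Pearson's r among 12441 genes. For H2-K1 they were Nr6a1 (r = 0.963), Ppp1r9a (0.957) and Stag2 (0.951). For B2m they were Tbc1d19 (0.940), Taf15 (0.939) and Tmem123 (0.929). For Tap1 they were Nectin2 (0.973), Stc2 (0.969) and Ptpra (0.967). The 18 points fall into 6 groups that share media and libraries, so these values describe likeness of pattern over those groups.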

How the data were processed

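The files hold raw fragment counts per gene, deposited by the authors for 18 RNA-seq samples. According to the labels, the paper's methods and the file headers, polyA RNA was made into directional libraries and sequenced on a HiSeq4000, reads were mapped to GRCm38 with TopHat2, and featureCounts v1.5.0-p1 counted fragments on exons of an Ensembl GRCm38 annotation. The counting was not strand-specific, counted fragments over several genes for each and counted multi-mapped fragments at each place. The exonic length in bp that the authors deposited beside the counts was used to scale levels per kb.

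The 16901 genes that reached 10 counts in 3 or more samples were tested with edgeR 4.0.16 under R 4.3.3, using TMM normalisation, 1 dispersion estimate over the 18 samples (common dispersion 0.0283) and quasi-likelihood F tests with Benjamini-Hochberg adjustment in each comparison. The SE is the log2 fold change divided by the square root of F. Levels used DESeq2 1.42.0 size factors, and log2 levels a pseudocount of 0.1. Ratios of few counts carry exact 95% binomial intervals for counting error only. The scripts were tested on simulated data. Gene symbols were matched for 35514 of 35773 identifiers. Figures used Python with matplotlib. Promoter windows came from RefSeq (GRCm38.p6).

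The 10 genes and the other lists were chosen with earlier results of these data known. The genes named are the 10, the up to 3 genes of each other list with the smallest adjusted p among the 6 groups, and Psmb10, Psmb5, Psmb6, Psmb7, Rfx5, Ciita and Psme1; 1 other gene that the rule names is not reported here. Ciita had at most 20 counts in any sample. The alternatives were DESeq2's Wald test, its size factors in edgeR, no filter on low counts, only the compared groups, a replicate block, each sample left out, no ESC-ASC samples and a pseudocount of 1; 2 more were chosen after seeing the data (the 4 libraries that stood apart left out, and ESC-ASC counts thinned at random to a total of 8000000). Depth, 4961934 to 18071600 counts per sample, limits values for Nlrc5 and for Tap2, Psmb8 and Psmb9 in ESCs. Bisulfite data were not analysed here.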

Additional observations from a re-analysis of the deposited data

Results flagged for a closer look

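The change from AFSCs to ASCs differed from the change from ESCs to ESC-ASCs for 8 of the 9 tested genes by a test of the difference itself (edgeR, adjusted p below 0.05), lower in each of the 8, as in 27.7% of all tested genes. By its form this contrast is also the gap between ASCs and ESC-ASCs minus the starting gap between AFSCs and ESCs. It is therefore not separate from that starting gap, which was called for 9 of the 9 genes. The difference, AFSC change minus ESC change on the log2 scale, was -2.10 for H2-K1, -2.64 for H2-D1 and -1.93 for B2m. It was -4.27 for Tap1, -6.45 for Tap2 and -1.02 for Tapbp. It was -3.92 for Psmb8 and -6.45 for Psmb9, and for these 2 and Tap2 the ESC samples held 2 to 4 counts in all, so the size depends on the prior count. The difference for Psmb8 was not called without ESC-ASC replicate 3 (-3.59, adjusted p = 0.0504). No group had more than 3 samples, so single samples far from their group were not tested for.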

How the results depend on the processing

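Of 181 recomputed counts of called genes, 180 stayed within 1.5 times the reported count. The exception was the number past the study's thresholds between AFSCs and EpiSCs, which ranged from 1 to 2 when 1 sample was left out (2 without AFSC replicate 2, AFSC replicate 3 or EpiSC replicate 3). Signs turned in differences that were not called: B2m in ASCs against ESCs (log2 -0.14 to 0.505 with 1 sample left out), EpiLCs against ESCs (-0.591 to 0.054), ESC-ASCs against ASCs (-0.007 to 0.305) and ESC-ASCs against ESCs (-0.003 to 0.642), and Psmb9 in ESC-ASCs against ASCs (-0.089 to 0.123 with 1 sample left out, -0.114 without the 4 libraries that stood apart and -0.029 with thinned ESC-ASC counts). With only the compared groups in the fit, Tapbp in ASCs against AFSCs (adjusted p = 0.0558), H2-D1 in the same comparison (0.117), Irf1 in ASCs against ESCs (0.0942) and Irf1 in AFSCs against EpiSCs (0.0568) were not called, and Psmb8 had too few counts to be tested in ASCs against ESCs or in ESC-ASCs against ASCs, where 3 genes were then called in place of 4. H2-D1 in ASCs against AFSCs was also not called with DESeq2 size factors (0.0501) or without the ESC-ASC samples (0.0732). Irf1 in AFSCs against EpiSCs was not called without the filter on low counts (0.083). Tapbp in ESC-ASCs against ESCs was called with DESeq2 size factors (0.0473), without the filter (0.0323) and with only the compared groups (0.0162). Between ASCs and AFSCs the number past the study's thresholds was 2 in place of 3 with DESeq2, its size factors, only the compared groups, no ESC-ASC samples, the 4 libraries left out, or without ASC replicate 1, AFSC replicate 2, EpiLC replicate 1 or ESC-ASC replicate 2 alone. Without the filter Nlrc5 was tested too, and it was called higher than in ESCs in ASCs (0.0413), ESC-ASCs (0.0461), EpiLCs (0.007) and AFSCs (0.00296) but not in EpiSCs (0.329). Levels with TMM stayed within 1 SD for 60 of 60 gene and group pairs.

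When replicate number was fitted as a block, the genes called numbered 9 (ASCs against AFSCs), 8 (ASCs against ESCs), 6 (ESC-ASCs against ESCs), 4 (ESC-ASCs against ASCs), 8 (EpiLCs against ESCs), 9 (AFSCs against ESCs), 9 (EpiSCs against ESCs) and 8 (AFSCs against EpiSCs), as without it. Deviations of same-numbered samples had a mean correlation of 0.0539 over 45 pairs (-0.114 to 0.332). Differently numbered samples had a mean of -0.0259 over 90 pairs (-0.253 to 0.233). Of the same-numbered pairs 16 of 45 exceeded 0.1, against 12 of 90 of the others. Deviations were taken from each group's mean and cancel within a group, so the values for differently numbered samples are not a separate baseline. The main fit did not pair the samples by number, and whether same-numbered samples share a handling step was not tested.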

Other observations

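MHC class II genes, which present peptides from outside the cell, were measured beside the class I genes. H2-Eb1 was at 310 ± 34 (SD, n = 3) normalised counts per kb in ASCs, 77.7 ± 18.2 in ESCs and 9.27 ± 0.48 in ESC-ASCs. H2-Ab1 was at 54.4 ± 10.7 in ASCs, 25.2 ± 3.0 in ESC-ASCs and 0.628 ± 0.603 in ESCs, and H2-DMb1 at 66.9 ± 8.8 in ASCs and 11.6 ± 2.1 in AFSCs. Cd74, the invariant chain, was at 47.8 ± 7.8 in ASCs, 31.4 ± 11.7 in AFSCs and 3.80 ± 1.18 in ESCs. Ciita, the class II coactivator and a relative of Nlrc5, had 15 to 20 counts per sample in ASCs, 3 to 8 in ESC-ASCs, 1 to 7 in ESCs and 0 in AFSCs. Of 6 class II genes tested, 4 were higher and 0 lower in ASCs than in ESCs, against 26.4% of all tested genes higher and 23.9% lower, and 4 were lower and 0 higher in ESC-ASCs than in ASCs, against 27.7% lower and 3892 of 16901 higher.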
